A study of Mus musculus with 2 samples.

Results

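The 6 genes described here are the Slit ligands Slit1, Slit2 and Slit3 and the Robo receptors Robo1, Robo2 and Robo4, of the 31053 genes listed for each library. They were taken by name, and their unique molecular identifiers (UMIs, 1 per captured transcript) were counted in barcodes with 2000 or more UMIs and under 10% mitochondrial UMIs. The barcodes came from dissociated aorta-gonad-mesonephros (AGM) regions of mouse embryos of embryonic day 11, profiled with the 10x Chromium 3′ chemistry. One library was made from PDGFRB +/+ (WT) and 1 from PDGFRB -/- (KO) embryos, on a C57BL/6J background, and the KO carries a constitutive loss of the receptor PDGFRβ in every cell. Whether embryos were pooled is not given in the sources used here.

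The WT library gave 8253 barcodes with a median of 13321 UMIs, and the KO library 8165 with a median of 12391. Pdgfrb, the deleted gene, was at 43.1 CPM (UMIs scaled to a total of 1000000) in WT and 7.09 in KO, where 9.81% of barcodes still held at least 1 of its UMIs. Xist was at 793 CPM in WT and 0.415 in KO, and 4 Y-linked genes together at 0.0266 and 163 CPM, so the libraries also differ in the sex of the embryos. With 1 library per genotype, genotype, sex and library cannot be told apart, no test between the genotypes was made, and every 95% interval below covers counting error only, neither the variation between embryos nor that between cells. The libraries shared 20 barcode sequences.

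Slits are large secreted proteins of the extracellular matrix that bind transmembrane receptors of the Robo family, though not every Robo need bind them. The pair is best known for repelling growing axons from the midline of the nervous system, through intracellular srGAP proteins, and heparan sulfate proteoglycans help the ligand to bind. Outside the nervous system, Slit2 and Robo2 limit the outgrowth of the ureteric bud by acting on the Gdnf-producing nephrogenic mesenchyme, and Robo4, a shorter family member, is a receptor of endothelial cells.

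Slit2 and Slit3 are long genes, and each carries a copy of miR-218 in an intron, a microRNA known to repress Robo1 and Robo2. In GENCODE M21 on GRCm38, Slit1 lies on chromosome 19 from 41600257 to 41743665 on the minus strand, Slit2 on chromosome 5 from 47983138 to 48307733 on the plus strand, and Slit3 on chromosome 11 from 35121224 to 35708507 on the plus strand. Robo1 lies on chromosome 16 from 72308306 to 73046095 on the plus strand, Robo2 on the same chromosome from 73891839 to 74411825 on the minus strand, and Robo4 on chromosome 9 from 37401897 to 37415115 on the plus strand. No other protein-coding gene overlaps any of the 6 on its own strand. The mature microRNA is encoded at chr5:48223966-48223986, in intron 16 of the Slit2 transcript with 39 exons, and at chr11:35616840-35616860, in intron 14 of the Slit3 transcript with 36 exons, and both copies give the same RefSeq sequence, shown with its seed (bases 2 to 8) in capitals:
miR-218-5p: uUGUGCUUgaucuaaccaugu
The letters that pair with this seed, AAGCACA, occur 3 times in the longest coding transcript of Robo2, 1 time in that of Robo1 and 0 times in that of Robo4. They also occur 2 times in that of Slit2, and 0 times in those of Slit1 and Slit3, so they are not particular to the receptors. Of 21877 coding genes, 27.0% hold them at least once. Whole transcripts were searched, and their length was not taken into account. Mature microRNAs were not measured by these libraries.

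RefSeq promoter windows were matched for 5 of the 6 members. Those of a broadly detected ligand, of the receptor highest in nephrogenic mesenchyme and of the endothelial receptor are shown, as windows with many, fewer and few CG dinucleotides, which stand in capitals. Each is written 5′ to 3′ on the strand of its gene (GRCm38.p6) and ends where the first annotated exon begins.
Slit2, chr5:47982905-47983137, plus strand: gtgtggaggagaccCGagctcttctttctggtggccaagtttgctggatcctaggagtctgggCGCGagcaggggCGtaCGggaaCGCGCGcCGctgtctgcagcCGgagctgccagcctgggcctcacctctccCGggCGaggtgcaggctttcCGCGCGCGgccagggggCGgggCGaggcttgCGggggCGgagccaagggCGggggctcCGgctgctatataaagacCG
Robo2, chr16:74411826-74412075, minus strand: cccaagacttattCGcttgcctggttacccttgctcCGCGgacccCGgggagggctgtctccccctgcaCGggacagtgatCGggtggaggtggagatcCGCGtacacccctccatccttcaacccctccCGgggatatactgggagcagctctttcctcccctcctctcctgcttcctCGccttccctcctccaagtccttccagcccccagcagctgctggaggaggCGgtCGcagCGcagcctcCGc
Robo4, chr9:37401722-37401896, plus strand: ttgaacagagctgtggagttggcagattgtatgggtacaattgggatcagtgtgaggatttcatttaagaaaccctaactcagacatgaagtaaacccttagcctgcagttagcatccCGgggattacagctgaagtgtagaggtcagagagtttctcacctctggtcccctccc
In the full 250 bases before the RefSeq start, Slit3 held 35 CG dinucleotides, Slit2 25, Robo2 14 in the window shown and 8 and 4 in those of its other starts, Robo1 11 and Robo4 2. The median of 32851 such windows was 6, and 29.0% of them held as few as Robo4 or fewer, while 90.4% held no more than Slit2 and 97.4% no more than Slit3. The letters TATAAA, searched on both strands, occurred in the window of Slit2 and in 12.4% of all windows.

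To place the members in cell classes, a barcode was assigned to a class when it held UMIs of at least 4 genes of that class's marker list, none of which is a Slit or Robo. Of 16 lists, 11 took 50 or more barcodes in each library. The class names stand for these gates. They are ranges on a count of markers rather than types: of the 610 WT barcodes of the smooth muscle and mural class, 207 held exactly 4 of its 10 markers, and 736 barcodes of the library held 3. Its barcodes also held a median of 8 of 10 mesenchyme markers in WT and 7 in KO, and a median of 2 of 8 sclerotome markers in both. Of the 238 WT barcodes of the nephrogenic mesenchyme class 127 stood at the gate, against 10 of the 115 endothelial ones. The mesenchyme class (2839 WT and 2805 KO barcodes) holds barcodes past no other gate, and 1431 and 1455 barcodes, at a median of 3259 and 3407 UMIs, passed no gate. No barcode passed the gates of the notochord or the neural tube. A gate led by S100a8 and S100a9, with 25 and 26 barcodes, stays unnamed, and the nephric and gut epithelium gate took 16 and 19.

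Slit2 and Slit3 made up nearly all Slit UMIs of the tissue, and both were high in smooth muscle and mural barcodes and in neurons, and Slit2 in WT also in the coelomic epithelium and gonadal ridge class, whereas Slit1 was at the limit of detection. Over all barcodes, Slit2 was at 37.8 CPM (36.8 to 38.8, WT) and 42.7 CPM (41.7 to 43.8, KO). Slit3 was at 40.5 CPM (39.5 to 41.6, WT) and 43.2 CPM (42.1 to 44.3, KO). Slit1 reached only 0.466 CPM (0.363 to 0.589, WT) and 0.162 CPM (0.103 to 0.243, KO), from 70 and 23 UMIs.

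In the smooth muscle and mural class, led by genes of contractile cells such as Actg2, Myh11, Cnn1 and Tagln, Slit2 was at 65.2 CPM (61.5 to 68.9, WT) and 90.3 CPM (85.4 to 95.4, KO). Slit3 was at 78.2 CPM (74.2 to 82.4, WT) and 74.3 CPM (69.8 to 78.9, KO) in the same barcodes. Slit2 thus exceeded the remaining barcodes by 0.94 (log2, WT) and 1.27 (log2, KO), and Slit3 by 1.15 and 0.90. At least 1 Slit3 UMI stood in 71.1% of WT and 70.1% of KO barcodes of this class, at medians of 22542.5 and 23595 UMIs per barcode. With every barcode thinned to 2000 UMIs the shares were 15.9% (WT) and 11.4% (KO) for Slit3, and 11.8% and 13.5% for Slit2. In erythroid barcodes, which should lack these genes, the thinned shares of both ligands lay between 0.444% and 1.33%, the unthinned ones between 4% and 6.67% at medians of 16824 and 19924 UMIs.

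Neurons, led by Phox2a, Dbh, Th and chromogranins as in sympathetic neurons, held Slit2 at 50.2 CPM (41.7 to 59.8, WT) and 71.7 CPM (59.6 to 85.7, KO). Slit3 was at 63.5 CPM (54.0 to 74.3, WT) and 75.3 CPM (62.8 to 89.5, KO) in these barcodes. The WT interval of Slit2 in neurons lay below that of smooth muscle, whereas the Slit2 intervals in KO and the Slit3 intervals in both libraries overlapped between these classes, so that order is not resolved. A Slit2 UMI stood in 38 of 91 WT and 28 of 92 KO neurons, at medians of 20005 and 8244 UMIs per barcode. After thinning, the shares were 4.40% (1.21 to 10.9, WT) and 8.70% (3.83 to 16.4, KO). These intervals overlapped, so no direction between the libraries is read from the shares. Before thinning, the highest Slit2 count in 1 barcode was 13 in WT and 27 in KO. That single barcode thus held 27 of the 122 Slit2 UMIs of the KO neurons.

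The ligands parted in other classes. In the coelomic epithelium and gonadal ridge class, Slit2 was at 57.5 CPM (51.8 to 63.6, WT) and 41.8 CPM (35.7 to 48.6, KO), and Slit3 only at 20.3 CPM (17.0 to 24.1) and 24.9 CPM (20.2 to 30.2). Skeletal myogenic barcodes were not far from the overall level for Slit2, at 37.3 CPM (WT) and 31.4 CPM (KO), but well below it for Slit3, at 10.2 and 9.78 CPM. In sclerotome, the vertebral precursors led by Pax1, Pax9 and Uncx, Slit2 was at 33.0 CPM (30.8 to 35.4, WT) and 39.4 CPM (37.3 to 41.5, KO), and Slit3 at 47.0 CPM (44.3 to 49.8) and 48.7 CPM (46.4 to 51.0). Since a 3′ UMI does not depend on transcript length but each gene is captured with its own efficiency, these differences are read between classes for 1 gene and not as more of 1 ligand than the other.

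Endothelial barcodes held little of either ligand. Slit2 was at 19.9 CPM (15.7 to 24.8, WT) and 6.38 CPM (4.31 to 9.11, KO), and Slit3 at 15.0 CPM (11.4 to 19.4) and 6.17 CPM (4.13 to 8.86). The WT values lie above those of WT erythroid barcodes, 8.03 CPM (6.63 to 9.65) for Slit2 and 5.85 CPM (4.66 to 7.25) for Slit3. The KO values lie at those of KO erythroid barcodes, 4.22 CPM for Slit2 and 6.63 CPM for Slit3, and are read as background. Macrophages were at 9.23 and 8.73 CPM for Slit2 in WT and KO, close to background. Their Slit3, at 8.96 CPM in WT, overlapped erythroid barcodes as well, but in KO it stood above them at 14.7 CPM (10.3 to 20.2). That KO value rests on 37 UMIs in 10 of 149 macrophage barcodes. The share of KO barcodes with a Slit3 UMI was 6.71% in macrophages and 6.67% in erythroid barcodes, and 1.34% and 1.33% after thinning. The shares thus did not stand above background. In free RNA, the sum of all barcodes of 1 to 100 UMIs, Slit2 was at 24.6 CPM (WT) and 33.1 CPM (KO), and Slit3 at 28.6 and 35.2 CPM.

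The few Slit1 UMIs were densest in a small WT population. The gastro-splenic mesenchyme class, gated on transcription factors of the stomach and spleen primordia such as Barx1, Tlx1 and Nkx2-5, had 121 WT barcodes and only 11 KO barcodes, too few to compare. In WT, 18 of its barcodes held 23 of the 70 Slit1 UMIs, which is 5.91 CPM (3.75 to 8.87), the highest Slit1 level of any gated class. The KO class held 0 UMIs, and at its depth 3 UMIs would have been 6.53 CPM, so a level like that of WT was not detectable there. In barcodes without a Barx1 UMI, Slit1 was at 0.345 CPM (WT) and 0.159 CPM (KO), from 46 and 22 UMIs.

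**Figure D1:**
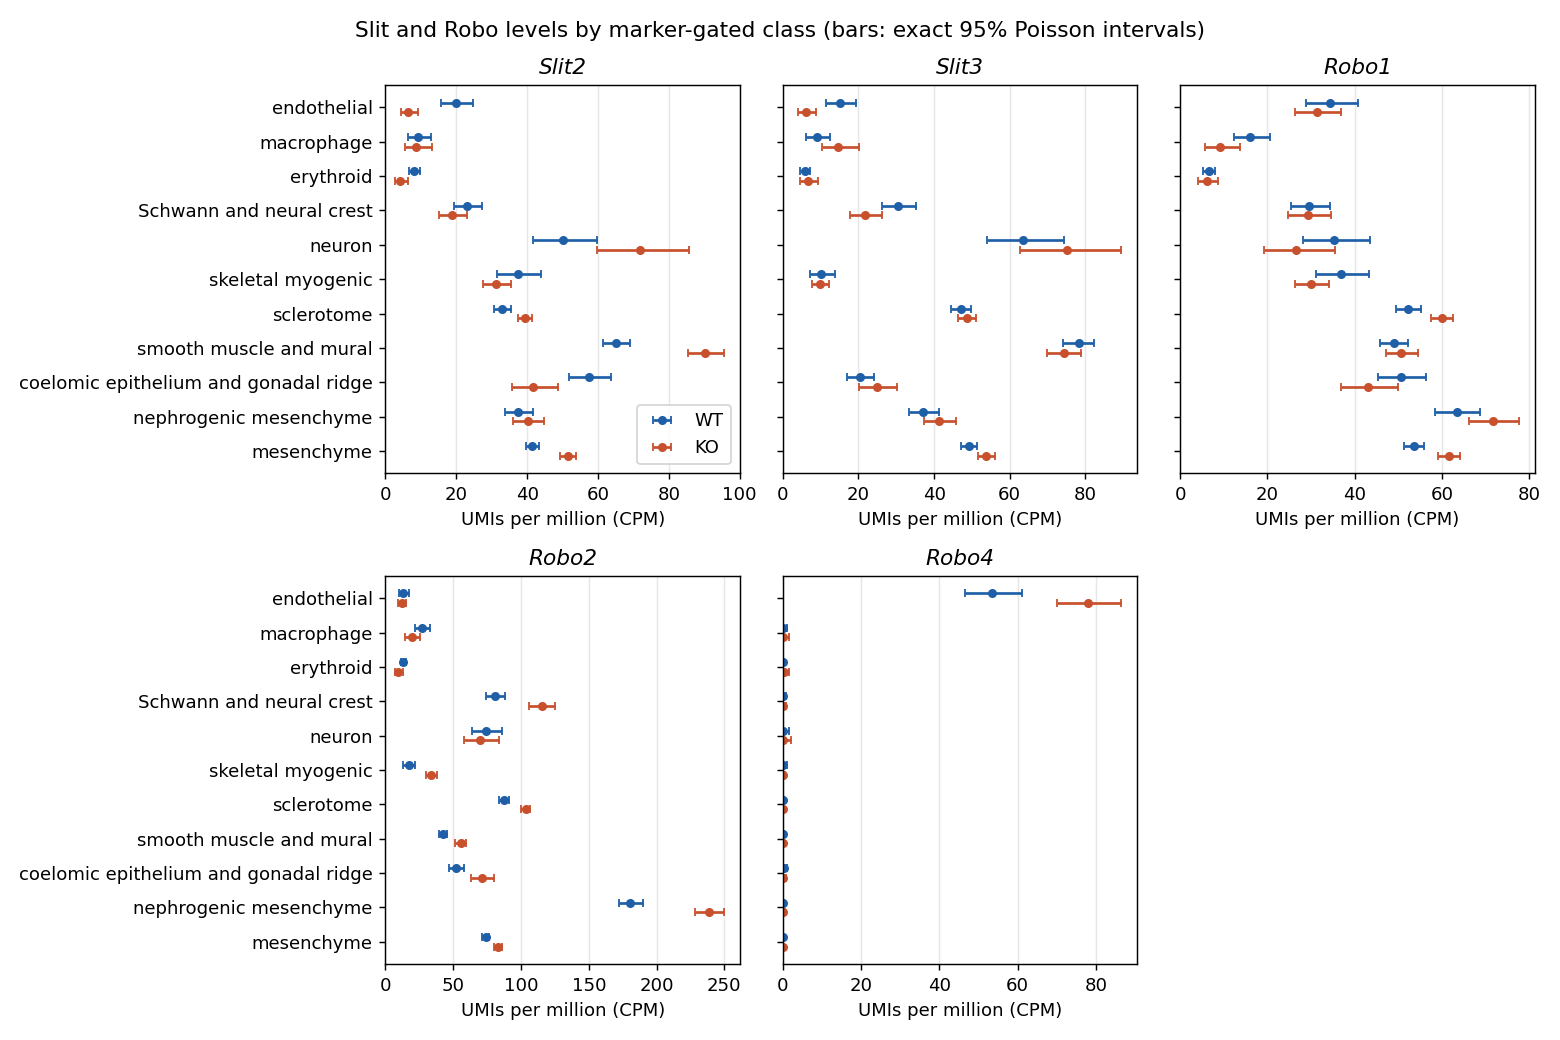
Level of Slit2, Slit3, Robo1, Robo2 and Robo4 in CPM (x axis) in the 11 marker-gated classes with 50 or more barcodes in each library (y axis), with WT in blue and KO in red. Points are UMIs summed over the barcodes of a class and bars are exact Poisson intervals for counting error. Slit2 and Slit3 are high in smooth muscle and neurons, Robo2 is highest in nephrogenic mesenchyme at 181 CPM (WT) and 239 CPM (KO), and Robo4 lies at 53.5 and 77.9 CPM in endothelial barcodes and close to 0 elsewhere.

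Robo2 was highest in nephrogenic mesenchyme, Robo1 was spread more evenly than Robo2 over the mesenchymal classes, and Robo4 was found mostly in the endothelial class. Over all barcodes, Robo1 was at 43.6 CPM (42.5 to 44.6, WT) and 50.4 CPM (49.2 to 51.6, KO). Robo2 was at 66.0 CPM (64.7 to 67.3, WT) and 85.6 CPM (84.1 to 87.2, KO). Robo4 was at 1.75 CPM (1.55 to 1.98, WT) and 2.61 CPM (2.35 to 2.89, KO). Robo3, the remaining receptor of the family, had 6 UMIs in WT and 15 in KO.

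In nephrogenic mesenchyme, led by Six2, Eya1 and Lbx2, Robo2 was at 181 CPM (172 to 189.7, WT) and 239 CPM (229 to 249, KO). That is 1.63 (log2, WT) and 1.66 (log2, KO) above the remaining barcodes. After thinning to 2000 UMIs, 27.7% of WT and 34.3% of KO barcodes of this class held a Robo2 UMI, against 1.72% and 1.33% of erythroid ones. The next classes were sclerotome, at 87.1 CPM (83.5 to 90.9, WT) and 103 CPM (100.1 to 107, KO), and Schwann and neural crest barcodes, at 80.9 CPM (73.9 to 88.4) and 115 CPM (106 to 125), whose intervals overlapped those of sclerotome in both libraries. Robo2 then fell through mesenchyme (73.9 and 82.8 CPM), coelomic epithelium (52.1 and 71.3 CPM) and smooth muscle (42.3 and 55.5 CPM). Neurons, at 74.4 CPM (64.1 to 86.0, WT) and 70.0 CPM (58.0 to 83.7, KO), overlapped mesenchyme in both libraries. Skeletal myogenic barcodes were at 17.1 CPM (13.3 to 21.7, WT) and 34.0 CPM (30.1 to 38.3, KO), and endothelial ones at 13.0 and 11.9 CPM, within the intervals of erythroid barcodes (13.2 and 9.64 CPM).

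Robo1 was also highest in nephrogenic mesenchyme, at 63.5 CPM (58.4 to 68.8, WT) and 71.8 CPM (66.2 to 77.7, KO), but by a narrower margin. Mesenchyme, sclerotome, coelomic epithelium and smooth muscle followed at 49.0 to 53.5 CPM in WT, each overlapping the next. In KO, mesenchyme and sclerotome were at 61.6 and 60.0 CPM, smooth muscle at 50.8 CPM and coelomic epithelium at 43.0 CPM. Unlike Robo2, Robo1 stood well above background in endothelial barcodes, at 34.4 CPM (28.8 to 40.7, WT) and 31.3 CPM (26.4 to 36.8, KO), where erythroid barcodes were at 6.48 and 6.03 CPM. Macrophages held 16.1 and 9.12 CPM of Robo1 and 27.2 and 19.4 CPM of Robo2.

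Robo4 was at 53.5 CPM (46.5 to 61.2, WT) and 77.9 CPM (70.1 to 86.3, KO) in endothelial barcodes. This class was led by Cdh5, Cldn5, Plvap and Aplnr and held 79.8% of all WT and 98.7% of all KO Robo4 UMIs. Of the 74 WT barcodes with a Robo4 UMI 61 were endothelial, and of the 73 KO ones 68. Of the 13 others in WT, 6 passed the endothelial gate but tied with another class, and those ties held 46 of the 53 UMIs outside the class. The 5 others in KO held 5 UMIs. Robo4 UMIs were found in 53.0% of WT and 67.3% of KO endothelial barcodes, at medians of 23699 and 33142 UMIs, and after thinning in 12.2% and 13.9%. A Robo1 UMI stood in 54 of the 115 WT and 62 of the 101 KO endothelial barcodes, 40 and 51 of which held Robo4 as well. Robo1 and Robo4 were thus both detected in the same endothelial barcodes, while Robo2 was not above background there.

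Ligands and receptors were then set against each other within each class, as the share of Slit2 and Slit3 among the UMIs of Slit2, Slit3, Robo1 and Robo2. Smooth muscle and mural barcodes had the highest share in WT, 61.1% (59.6 to 62.5), and were at 60.8% (59.2 to 62.3) in KO. Nephrogenic mesenchyme had a low one in both libraries, 23.4% (21.9 to 25.0) in WT and 20.8% (19.5 to 22.2) in KO. Between these values lay neurons at 50.9% (46.6 to 55.2, WT) and 60.4% (55.5 to 65.1, KO), mesenchyme at 41.6% and 42.2%, and sclerotome at 36.5% and 35.0%. Schwann and neural crest barcodes were at 32.6% (WT) and 21.9% (19.2 to 24.8, KO). In KO, neurons thus overlapped smooth muscle, and Schwann and neural crest barcodes overlapped nephrogenic mesenchyme, so neither order is resolved there. The share depends on the capture of each gene, so its differences between classes can be read but not its distance from an even split. Over all barcodes it was 41.7% (41.1 to 42.3) in WT and 38.7% (38.2 to 39.3) in KO. The endothelial share, 42.4% in WT and 22.5% in KO, rests on ligand counts of 137 and 59 UMIs, those of KO at background. It also leaves out Robo4, with 210 (WT) and 366 (KO) UMIs in this class. Counting them as receptor UMIs would lower the endothelial share, so its place among the classes holds for these 4 genes only.

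**Figure D2:**
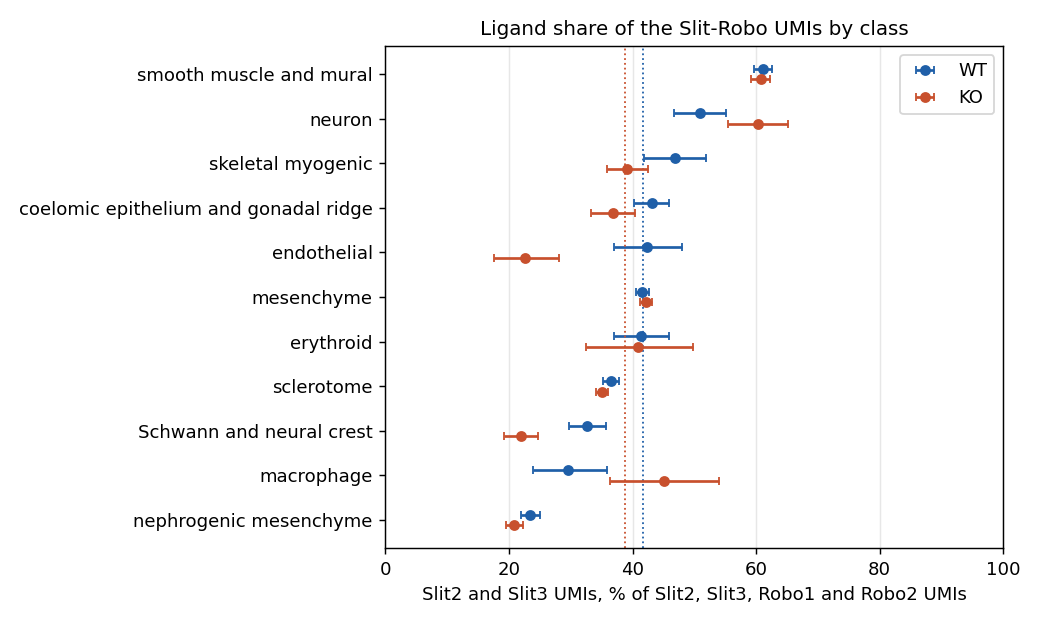
Share of Slit2 and Slit3 in the summed UMIs of Slit2, Slit3, Robo1 and Robo2 (x axis, percent) in 11 classes ordered by their WT value (y axis), with exact binomial intervals. Robo4 is not counted, which matters for the endothelial class. Dotted lines mark the share over all barcodes, 41.7% in WT (blue) and 38.7% in KO (red). Smooth muscle lies at the ligand end at 61.1% and 60.8%, overlapped in KO by neurons at 60.4%, and nephrogenic mesenchyme at the receptor end in WT at 23.4%.

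The study sorts perivascular cells by PDGFRβ and NG2 (the product of Cspg4), so WT barcodes of the 5 mesenchymal classes were split by whether they held a UMI of each gene. Slit3 and Slit2 were highest in double-positive (DP) barcodes. The 407 DP barcodes held 62.4 CPM of Slit2 (58.2 to 66.7), and the 2094 that were single-positive for PDGFRβ (PDGFRβ-S) held 43.2 (41.3 to 45.1). The 237 single-positive for NG2 (NG2-S) held 35.4 CPM (29.9 to 41.6) and the 2346 double-negative (DN) ones 38.0 (36.0 to 40.2). For Slit3 the DP level was 71.0 CPM (66.6 to 75.7), that of PDGFRβ-S 55.5 (53.4 to 57.6), that of NG2-S 58.6 (51.4 to 66.4) and that of DN 41.0 (38.8 to 43.2). Slit3 is on a list of hematopoietic support genes in the study. These were taken from earlier work on AGM stromal clones and narrowed with the study's own contrast of these WT and KO samples. Neither the order of Slit3 here nor its KO over WT ratios are therefore independent evidence. Robo2 ran the other way, from 59.3 CPM (55.3 to 63.5) in DP through 76.5 (74.0 to 79.0) in PDGFRβ-S to 103 (93.1 to 113) in NG2-S, with DN at 95.1 (91.8 to 98.5). Robo1 varied less, from 43.9 CPM in NG2-S to 56.2 CPM in PDGFRβ-S. Depth moved with the split, from a median of 12013 UMIs in DN and 14422 in NG2-S to 16280 in PDGFRβ-S and 24137 in DP, and its part in the result was not tested. Cspg4 and Pdgfrb are also markers of the smooth muscle and mesenchyme gates.

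Within single classes these orders held in part. Slit2 in mesenchyme kept its order of levels, with 43.2 CPM in PDGFRβ-S and 30.5 CPM (19.4 to 45.8) in NG2-S barcodes, and in smooth muscle it did not. In the smooth muscle and mural class, DP barcodes held 70.5 CPM of Slit2 (64.7 to 76.6), PDGFRβ-S ones 55.4 (50.4 to 60.7) and DN ones 74.3 (61.6 to 88.9), and the 30 NG2-S ones were highest at 108 CPM (82.8 to 138). In mesenchyme the DP level was 50.4 CPM (38.4 to 64.9) and the DN level 39.4 (36.6 to 42.4), with overlapping intervals. Slit3 kept the order DP above DN in each of the classes examined, at 79.5 and 60.1 CPM in smooth muscle, 66.3 and 42.0 CPM in mesenchyme, and 60.0 and 37.3 CPM in sclerotome. The Slit3 level of PDGFRβ-S barcodes in smooth muscle (81.1 CPM) and of NG2-S ones in sclerotome (60.7 CPM) overlapped that of DP. In mesenchyme, PDGFRβ-S at 54.2 CPM (51.2 to 57.4) also overlapped DP (52.5 to 82.7). For Slit2 in sclerotome, DP was at 33.5 CPM (27.1 to 41.1), below PDGFRβ-S at 40.9 (37.0 to 45.2), with overlapping intervals. Robo2 in smooth muscle was lowest in DP, at 36.1 CPM (32.0 to 40.6), and highest in NG2-S barcodes, at 51.3 CPM (34.6 to 73.2), though these levels rest on 30 UMIs in NG2-S. Robo2 in sclerotome was higher in DP barcodes, at 104 CPM (92.3 to 117), than in PDGFRβ-S ones at 80.1 (74.6 to 86.0) and DN ones at 80.3 (74.7 to 86.2), against the order over all mesenchymal classes. In mesenchyme, the Robo2 level of DP barcodes, 70.5 CPM (56.3 to 87.3), overlapped that of each other gate. Of the total of 407 DP barcodes 233 were smooth muscle. In KO, pooled mesenchymal barcodes held 60.1 CPM of Slit2 (56.9 to 63.4) with a Cspg4 UMI and 49.2 CPM (47.7 to 50.8) without. Their Slit3 was at 66.3 CPM (63.0 to 69.8) and 50.1 CPM (48.5 to 51.7). By class, Slit2 was higher with Cspg4 in smooth muscle, at 100.3 against 79.0 CPM, but lower in sclerotome, at 33.4 against 42.0 CPM. Slit3 was higher with Cspg4 in both, at 83.9 against 63.4 CPM and 58.7 against 44.2 CPM. In KO mesenchyme, the intervals with and without Cspg4 overlapped for each ligand. Sclerotome held 441 of the 801 KO barcodes with Cspg4.

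**Figure D3:**
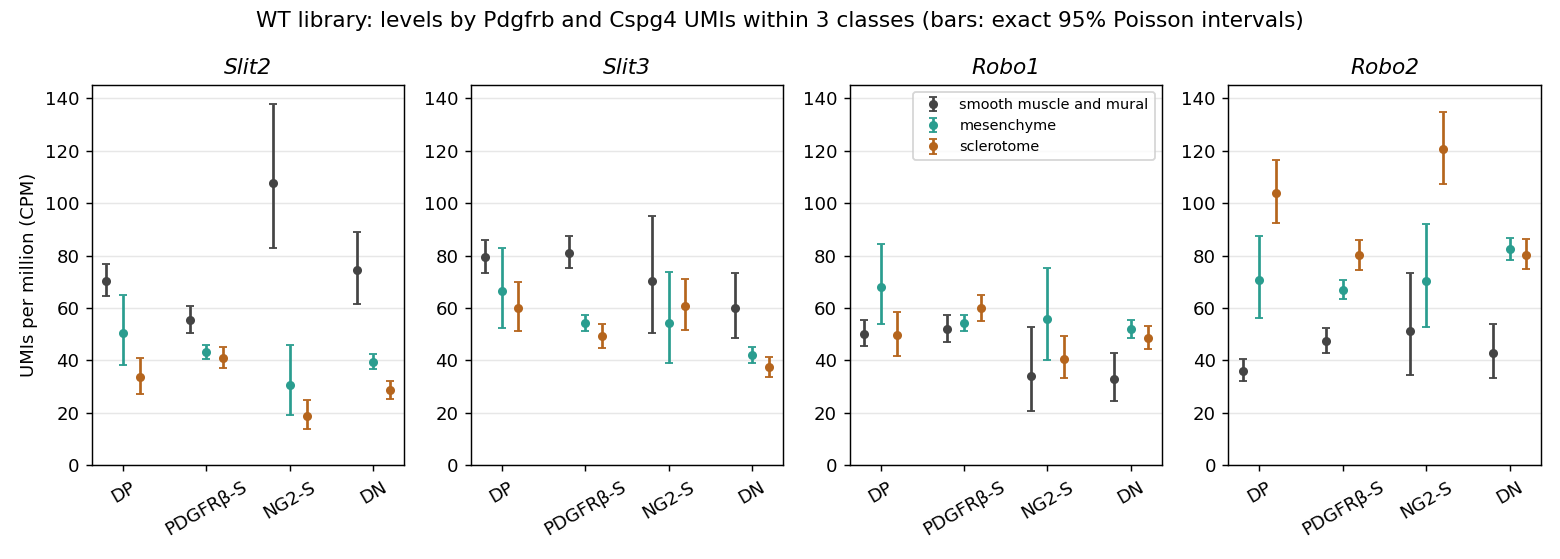
WT levels of Slit2, Slit3, Robo1 and Robo2 (y axis, CPM) by gate (x axis, from DP to DN) of the smooth muscle and mural, mesenchyme and sclerotome classes, with exact Poisson intervals. Slit3 is higher in DP than in DN in each of these classes, and Robo2 in sclerotome is highest in NG2-S at 121 CPM.

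Inside the mesenchyme class, member levels differed by marker. Levels were compared between barcodes with and without a UMI of each of 13 markers that could be split in both libraries. These markers come from the lists of the mesenchyme and gastro-splenic gates, so the gating itself shapes which barcodes lack them. Deeper barcodes are also more likely to hold a marker UMI. The part of gating and depth in these ratios was not tested. Robo2 was higher with Foxf1, a transcription factor of the splanchnic mesoderm, at 115 against 56.5 CPM in WT (log2 1.02, 0.92 to 1.12) and 157 against 61.1 CPM in KO (log2 1.36, 1.26 to 1.46). It was also higher with Tcf21, at 104 against 55.7 CPM in WT and 133 against 63.6 CPM in KO. With Postn, a matrix protein gene, Robo2 was lower, at 47.3 against 87.8 CPM in WT and 43.4 against 99.1 CPM in KO. Of the 13 markers, 4 went with higher Robo2 in both libraries (Foxf1, Pdgfra, Prrx1, Tcf21) and 5 with lower Robo2 (Col1a1, Col1a2, Dcn, Lum, Postn), with intervals that left out 0. Slit2 went with the collagen gene Col1a2, at 43.9 against 21.8 CPM in WT and 54.0 against 21.6 CPM in KO, and with Dcn, at 51.2 against 35.2 CPM in WT and 70.7 against 43.4 CPM in KO. In both libraries, 4 markers went with higher Slit2 (Col1a1, Col1a2, Dcn, Tcf21) and 3 with lower Slit2 (Foxf1, Prrx1, Wnt2). With Wnt2, Slit2 was at 23.4 against 48.1 CPM in WT and 35.4 against 54.0 CPM in KO. Slit3 was higher in both libraries with 6 markers, Col1a1, Col1a2, Col3a1, Pdgfra, Postn and Wnt2, and lower in both with 2, Nkx2-3 and Tcf21. The libraries differed in sign for 4 of the 13 markers for each of Slit2, Slit3 and Robo2 and for 5 for Robo1. Robo2 went from higher with Nkx2-3 in WT (log2 1.03) to lower in KO (log2 -0.34) and from lower with Wnt2 (-0.37) to higher (0.31), and Slit2 from lower with Postn (-0.37) to higher (0.20), each with intervals clear of 0.

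**Figure D4:**
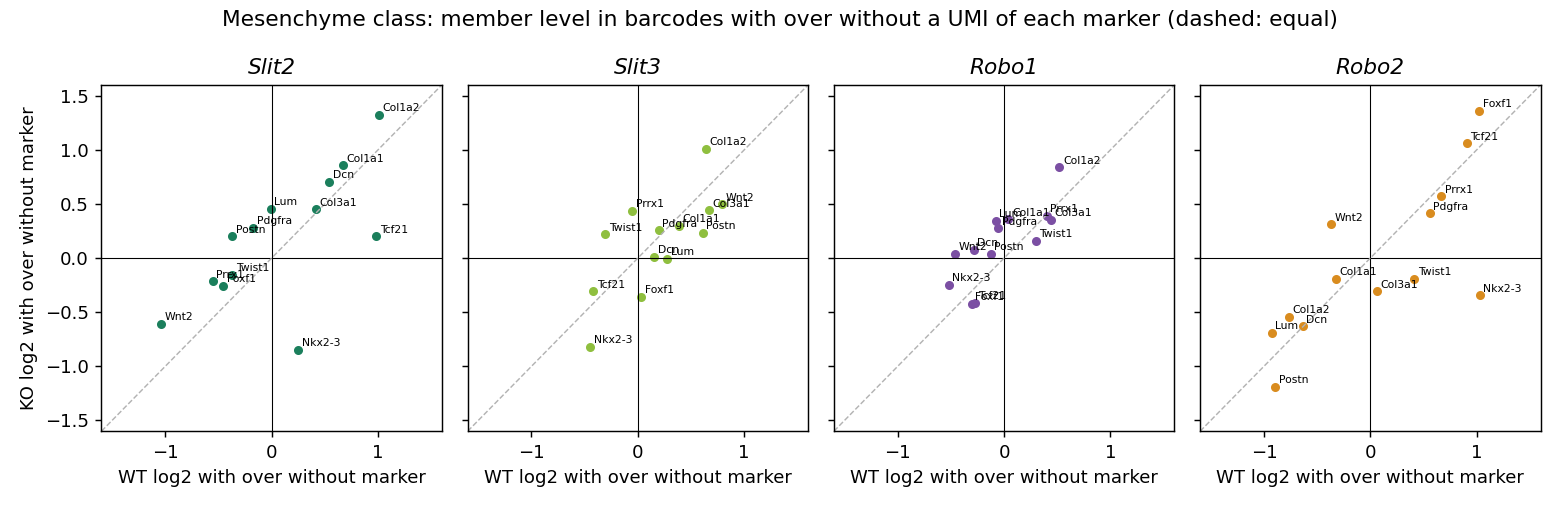
Log2 ratio of the member's CPM in mesenchyme-class barcodes with over without a UMI of each marker, in WT (x axis) and KO (y axis), for Slit2, Slit3, Robo1 and Robo2, with the line of equal values dashed. Robo2 lies far from 0 on the same side in both libraries for Foxf1 and Tcf21 (above) and for Postn, Lum and Dcn (below).

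Within the smooth muscle and mural class, 8 markers of its own gate could be split, so the limits of gating and depth given for mesenchyme apply here too. The libraries differed in sign for 4 of the 8 markers for Slit2, for 3 for Robo1 and for 2 each for Slit3 and Robo2. Slit3 was higher with the contractile genes Myh11, at 100.3 against 63.9 CPM in WT and 83.7 against 67.0 CPM in KO, and Cnn1, at 91.4 against 61.6 CPM in WT and 83.3 against 59.7 CPM in KO. Slit2 was higher with Rgs5, a gene of pericytes, at 77.4 against 37.2 CPM in WT and 97.8 against 76.1 CPM in KO, and with Notch3, at 69.1 against 48.4 CPM in WT and 98.6 against 46.4 CPM in KO. It was lower with Myocd, the coactivator of the smooth muscle program, at 48.3 against 72.1 CPM in WT and 63.0 against 105 CPM in KO. With Rgs5, Slit3 was lower in WT, at 73.8 against 88.1 CPM, and higher in KO, at 81.6 against 60.4 CPM. Slit3 was higher with Heyl and Mcam in both libraries, and Slit2 only in KO (log2 0.48 and 0.42), where in WT its ratios were -0.12 and -0.16 with intervals that held 0. Robo2 was lower with Cnn1 in both libraries, at 31.5 against 55.9 CPM in WT and 42.1 against 77.2 CPM in KO. It was also lower in both with Mcam and Myh11, and higher in both with Rgs5 and Notch3. Robo1 was lower in both libraries with 5 markers, Cnn1, Heyl, Mcam, Myh11 and Myocd, and higher in both with 0.

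Between the libraries, Robo2, the member with the most UMIs, was also the one with the most classes whose interval lay above 0 in KO. The log2 ratio of KO over WT across all barcodes was 0.38 (0.34 to 0.41) for Robo2, 0.21 (0.16 to 0.26) for Robo1, 0.18 (0.12 to 0.23) for Slit2 and 0.09 (0.04 to 0.14) for Slit3. It was 0.57 (0.34 to 0.81) for Robo4 and -1.53 (-2.27 to -0.83) for Slit1. Of the 5 members with at least 100 UMIs in each library, Robo2 and Robo4 were past 1.25-fold higher in KO, as were 13% of 13579 genes, and 0 were past 1.5-fold in either direction, where 7.89% of genes were. Robo4 lay just inside that bound and passed it under 4 of 7 alternatives (log2 0.59 to 1.25), while the mean of single-barcode CPM gave 0.17. The median of all those genes was 0.07. Sums over all barcodes mix the level in each cell with the number of cells of each class, and with the KO classes weighted to the WT mix the log2 ratio was 0.27 for Robo2, 0.12 for Robo1 and 0.26 for Robo4. Removing KO barcodes with a Pdgfrb UMI, as the study did, gave -0.06 for Slit3, and only KO barcodes are removed by that step.

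By class, Robo2 was higher in KO in 7 of 11, each with an interval above 0, and 0 classes had an interval below 0. Its many UMIs (9908 in WT and 12177 in KO) narrow its intervals, so that they leave out 0 more readily. The share of all genes with as many such classes was not counted, so the count is not read as particular to Robo2. The ratio was 0.99 (0.60 to 1.40, log2) in skeletal myogenic barcodes, 0.51 (0.33 to 0.69) in Schwann and neural crest, 0.45 (0.22 to 0.68) in coelomic epithelium and 0.40 (0.31 to 0.50) in nephrogenic mesenchyme. It was 0.39 (0.25 to 0.54) in smooth muscle, 0.25 (0.17 to 0.32) in sclerotome and 0.16 (0.09 to 0.24) in mesenchyme. Neurons, at -0.09 (-0.43 to 0.25), and endothelial barcodes, at -0.12 (-0.70 to 0.45), did not differ beyond counting error. Skeletal myogenic barcodes, with the largest of these ratios, numbered 137 in WT and 326 in KO. Their shares with a Robo2 UMI had overlapping intervals, at 24.1% (17.2 to 32.1, WT) and 27.9% (23.1 to 33.1, KO). After thinning they were 1.46% (0.177 to 5.17) and 4.29% (2.37 to 7.10), which also overlapped. In free RNA, Robo2 was at 59.6 CPM (WT) and 54.7 CPM (KO).

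Slit2 was higher in KO in 5 classes and lower in 6, with 4 and 3 intervals clear of 0. The lower intervals were those of coelomic epithelium at -0.46 (-0.73 to -0.19, log2), endothelial barcodes at -1.64 (-2.30 to -1.01) and erythroid ones at -0.93 (-1.68 to -0.25). Of these, the endothelial KO level is read as background, and erythroid barcodes should lack this gene. Slit2 was higher in neurons by 0.52 (0.14 to 0.89), in smooth muscle by 0.47 (0.36 to 0.59), in mesenchyme by 0.31 (0.22 to 0.41) and in sclerotome by 0.25 (0.13 to 0.38). Free RNA of both ligands also had higher values in KO, as given above, but from only 61 (WT) and 78 (KO) UMIs for Slit2 and 71 and 83 for Slit3. No interval was computed for free RNA, and its part in these ratios was not tested. Summed over whole classes, Slit3 was higher in KO in 7 and lower in 4, with 2 and 2 intervals clear of 0. It differed little in mesenchyme at 0.13 (0.04 to 0.22), sclerotome at 0.05 (-0.06 to 0.16) and smooth muscle at -0.07 (-0.19 to 0.04). Slit3 was lower in Schwann and neural crest barcodes at -0.49 (-0.85 to -0.13), and in endothelial ones at -1.28 (-1.98 to -0.62), whose KO level is read as background. In macrophages its ratio was 0.71, with an interval that only just left out 0. The make-up of a class can also differ: in mesenchyme, 666 WT and 294 KO barcodes held a Wnt2 UMI. Slit3 was at 41.2 (WT) and 51.0 CPM (KO) without Wnt2, and at 71.2 and 72.1 CPM with it. Robo2 was at 78.6 and 80.2 CPM without Wnt2, and at 61.0 and 99.5 CPM with it. The part of make-up in the class ratios was not tested. In smooth muscle, 2 of the 4 members with at least 50 UMIs in each library, Slit2 and Robo2, were past 1.25-fold higher in KO, where 10.3% of genes were. In nephrogenic mesenchyme 1 of 4 was, Robo2, where 9.81% of genes were, and 0 of 4 were in mesenchyme (10.8% of genes) and in sclerotome (11.6% of genes). Robo1 was higher in mesenchyme by 0.20 (0.12 to 0.29) and in sclerotome by 0.20 (0.10 to 0.30), and in smooth muscle its ratio was 0.05 (-0.09 to 0.19). In endothelial barcodes Robo4 was higher by 0.54 (0.29 to 0.79), with a thinned share of barcodes that differed by less than its counting error.

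**Figure D5:**
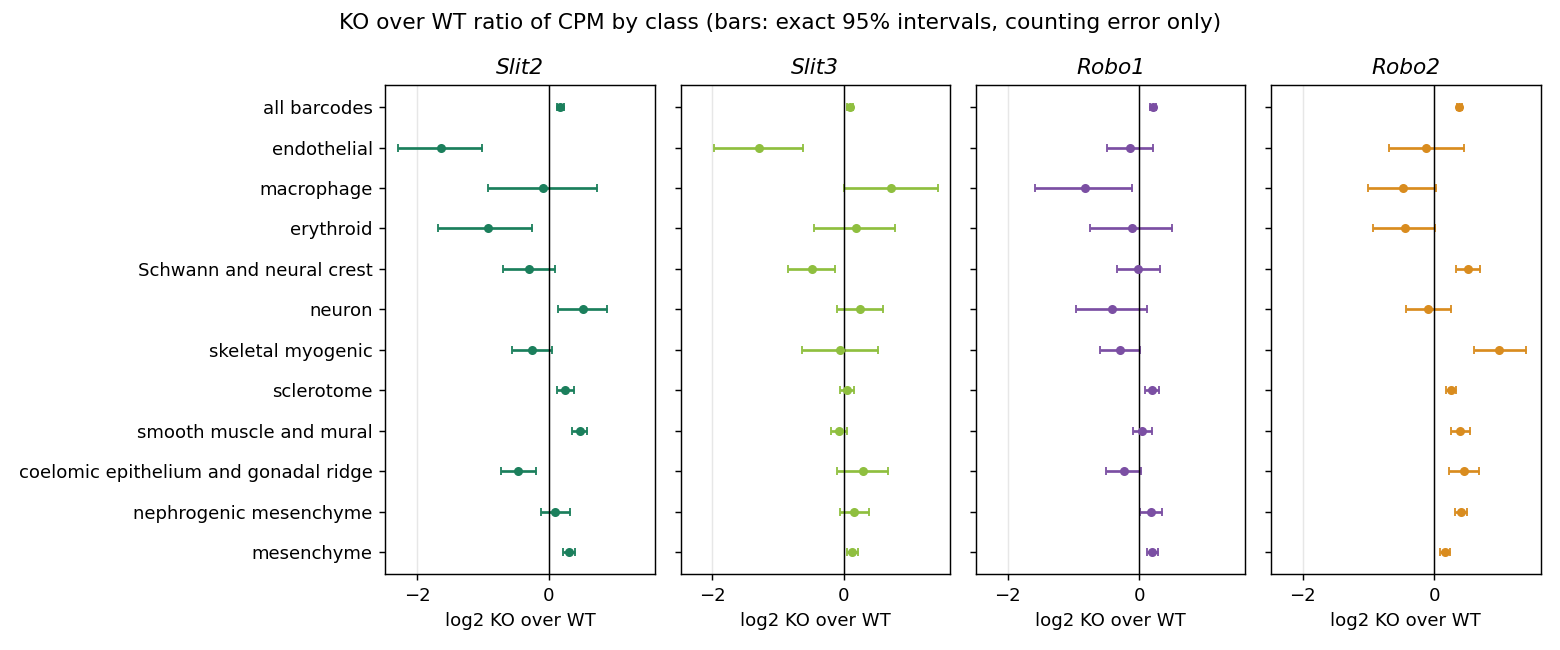
Log2 ratio of KO over WT CPM (x axis) for Slit2, Slit3, Robo1 and Robo2 over all barcodes and in 11 classes (y axis), with exact 95% intervals for counting error and a line at 0. Robo2 lies above 0 in 7 classes, with its largest ratio, 0.99, in skeletal myogenic barcodes, while Slit2 is above 0 in smooth muscle (0.47) and far below it in endothelial barcodes (-1.64), where both libraries hold few UMIs.

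Of 39 other genes of the pathway, 38 had at least 100 UMIs in each library, and the median of their KO over WT log2 ratios was 0.09, beside 0.07 for all genes. Dcc, a netrin receptor, was past 1.5-fold, at 1.15 CPM (WT) and 2.15 CPM (KO) (log2 0.90, 0.63 to 1.18), and 0 genes were past 1.5-fold lower. That is 1 of 38, against 7.89% of all genes in either direction. Besides Dcc, only the srGAPs and the netrin Ntn1 of those 38 genes were past 1.25-fold higher in KO, a bound that 13% of all genes passed. Srgap1 was at 29.3 CPM (WT) and 40.0 CPM (KO), Srgap2 at 24.4 and 34.2 CPM and Srgap3 at 10.1 and 13.3 CPM. Their log2 ratios were 0.45, 0.49 and 0.40, and that of Ntn1 was 0.44. The adaptor gene Nck1 was lower in KO at -0.32. The srGAPs, Ntn1 and Nck1 were named after their values were seen. The 10 co-receptor and matrix genes, among them syndecans and glypicans, had 0 past 1.5-fold and a median of 0.06, and the 21 effector and processing genes 0 past 1.5-fold and a median of 0.13.

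The genes most like each member were sought by Pearson's r of log2(CPM + 1) over the 22 class and library values among 10919 genes, where points of a library share its depth and free RNA. Robo4 was closest to Aplnr (r = 0.995), Ptprb (0.988) and Sox18 (0.985), all genes of endothelial cells. Slit2 was closest to Gabbr1 (0.942), Ror1 (0.931) and Adgrl3 (0.927), and Slit3 to Efna3 (0.916), Kctd1 (0.914) and 6330403K07Rik (0.911). Robo1 was closest to Lzts2 (0.968), Gjc1 (0.967) and Zfp260 (0.966), and Robo2 to Zfp882 (0.937), Gdf11 (0.900) and B230217C12Rik (0.898). Among Slit2, Slit3, Robo1 and Robo2, r was 0.83 for Slit2 with Slit3 and 0.71 for Robo1 with Robo2. Between ligand and receptor it was 0.79 for Slit2 with Robo1, 0.75 for Slit3 with Robo2, 0.68 for Slit3 with Robo1 and 0.65 for Slit2 with Robo2.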

How the data were processed

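The authors deposited UMI counts for every gene and barcode of 1 WT and 1 KO library (10x Chromium 3′), as Cell Ranger 3.1.0 wrote them on the mm10 (GRCm38) reference per the labels and the methods, with no cells called and no normalization. Here barcodes with 2000 or more UMIs and under 10% mitochondrial UMIs were used, 8253 in WT and 8165 in KO, with 150175081 and 142222182 UMIs. A barcode went to the class with the largest share of its marker list among those with 4 or more markers, mesenchyme last, and ties (68 and 79) were left out. No doublet caller was run. The removal of 582 WT and 540 KO barcodes past several gates is an alternative. CPM carry exact Poisson and shares exact binomial intervals, and KO over WT ratios exact conditional binomial ones, at 95%. No test was made, as cells of 1 library are not replicates. Named genes are the 6 members, pathway genes past 1.5-fold and the 3 genes most like each member. The members and lists were chosen with earlier results of these data known. Intervals, ratios and gates were tested on simulated data. Positions come from GENCODE M21 and sequences from RefSeq (GRCm38.p6). Python 3.11.15, numpy 2.4.6, scipy 1.17.1, pandas 2.3.3 and matplotlib 3.10.9 were used.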

Additional observations from a re-analysis of the deposited data

How the results depend on the processing

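Removing KO barcodes with a Pdgfrb UMI turned the log2 ratio of KO over WT of Slit3 to -0.058 and gave 0.043 for Slit2, 0.15 for Robo1 and 0.84 for Robo4. Weighting KO classes to the WT mix gave 0.12 for Robo1, 0.27 for Robo2 and 0.26 for Robo4, and means of single-barcode CPM gave 0.25 for Slit2, 0.29 for Robo1 and 0.17 for Robo4. Without barcodes past several gates Slit2 was at 0.27 and Robo2 at 0.33, and without globin, mitochondrial and sex-linked UMIs in the totals Robo2 was at 0.33. Asking for under 5% mitochondrial UMIs, which leaves 3600 WT and 2915 KO barcodes, gave 0.40 for Robo1 and 1.25 for Robo4, and log2 class over rest ratios of 0.78 (WT) for Slit2 and 1.45 (WT) and 1.73 (KO) for Slit3 in smooth muscle, and 2.28 (WT) and 1.58 (KO) for Robo2 in nephrogenic mesenchyme. A gate of 5 markers gave 1.73 for that WT value. Thinning to 2000 UMIs lowered the shares of barcodes with a UMI to 11.8% (WT) and 13.5% (KO) for Slit2 and 15.9% and 11.4% for Slit3 in smooth muscle, 27.7% and 34.3% for Robo2 in nephrogenic mesenchyme and 12.2% and 13.9% for Robo4 in endothelial barcodes, by its construction. For the others the cause was not tested. Of 76 values under alternatives 47 stayed within the counting interval of the reported value, and 1 changed direction. Asking for 5000 UMIs moved none of the values beyond that interval. Members with few UMIs, Slit1 and Robo4, are limited by depth. No paired analysis was possible because each genotype has 1 library.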

Other observations

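Ligand and receptor UMIs were also counted in the same barcodes, after thinning each to 2000 UMIs. In the WT mesenchyme class, 11.9% (7.67 to 17.3) of 194 barcodes with a Slit2 UMI held a Robo1 UMI, against 9.64% of those without Slit2, and 12.4% (8.09 to 17.8) held a Robo2 UMI, against 11.5%. In KO the values were 9.72% against 10.6% for Robo1 and 11.7% against 12% for Robo2, among 247 barcodes with a Slit2 UMI. Detection of a receptor with and without the ligand differed by less than counting error there in both libraries. Slit2 and Slit3 were each set against Robo1 and Robo2 in several classes. For smooth muscle, the pair with the widest WT gap was picked after the values were seen. In WT, 15.5% (8.92 to 24.2) of 97 barcodes with a Slit3 UMI held Robo1, against 6.43% of the others. Robo2 was held by 7.22% of the same barcodes, against 6.82%. In KO, 4.08% (0.498 to 14.0) of 49 barcodes with a Slit3 UMI held Robo1. The 8.64% of the other KO barcodes lay within that interval, so no direction is read in KO.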
